A study of Mus musculus with 81 samples.

Results

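Stromal cells of the embryonic mouse pancreas were divided by how many of 10 genes of the G2 and M phases of the cell cycle each cell carried, and the remaining genes of the 2 outer classes were described. A stromal cell was one with Col3a1 (a fibrillar collagen of connective tissue) at 10 RPKM or more and with Epcam (epithelium), Chga (endocrine cells), Tyrobp (myeloid cells) and Emcn (endothelium) each under 10 RPKM. RPKM are read numbers divided by the length of the transcript and the size of the library. The cells were chosen by these values and by the levels of 10 genes in the same table. The 10 genes were Top2a, Mki67, Ccnb1, Cdk1, Nusap1, Ube2c, Aurka, Birc5, Hmmr and Cenpe, and a gene counted when it reached 10 RPKM. Of 81 cells, 62 were stromal after 4 shallow libraries (C3, C43, C61 and C94) had been left out. Cells with 4 or more of the genes are called high-count cells (33 cells), cells with 0 or 1 low-count cells (21 cells), and the 8 cells with 2 or 3 were kept apart.

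The embryos were wild-type mice of strain CD1, at embryonic day 13.5, with no treatment given in the labels. Their pancreata were dissociated with trypsin, and a microfluidic device isolated the cells one by one. cDNA was made with SMARTer chemistry, which copies whole transcripts, and libraries with Nextera XT. The labels give 1 group and name no embryo or litter, so the cells count as 1 sample and tests between the classes would have no replicates: values are descriptions and SDs are spreads over cells.

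A dividing cell copies its DNA in S phase and separates the copies in M phase, with the gaps G1 and G2 between them. Many genes of DNA replication are switched on by E2F factors before and during S phase, and many genes of the spindle, the centromere and cytokinesis later, in G2, by complexes of MuvB proteins with B-Myb and Foxm1. The mesenchyme around the pancreatic epithelium proliferates during organ growth and supplies signals that the epithelium needs to expand.

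The number of the 10 genes spread over the whole range. It was 0 in 11 cells, 1 in 10 cells, 2 in 7 cells and 3 in 1 cell, and then 4 in 5 cells, 5 in 3, 6 in 2, 7 in 6, 8 in 8, 9 in 4 and 10 in 5. The high-count class held 53.2% of stromal cells (exact 95% Clopper-Pearson interval 40.1 to 66.02%), the low-count class 33.9% (22.3 to 47.01%) and the cells between 12.9% (5.74 to 23.9%). These intervals cover counting error only. At the border, cell C15 had 3 of the genes, with Birc5 at 138.5 and Cenpe at 114 RPKM, and cell C79 had 4, with Ube2c at 88.1 and Top2a at 41.9 RPKM. Among the 15 cells that were neither stromal nor shallow, 12 had 4 or more of the genes (exact interval 51.9 to 95.7%).

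**Figure D1:**
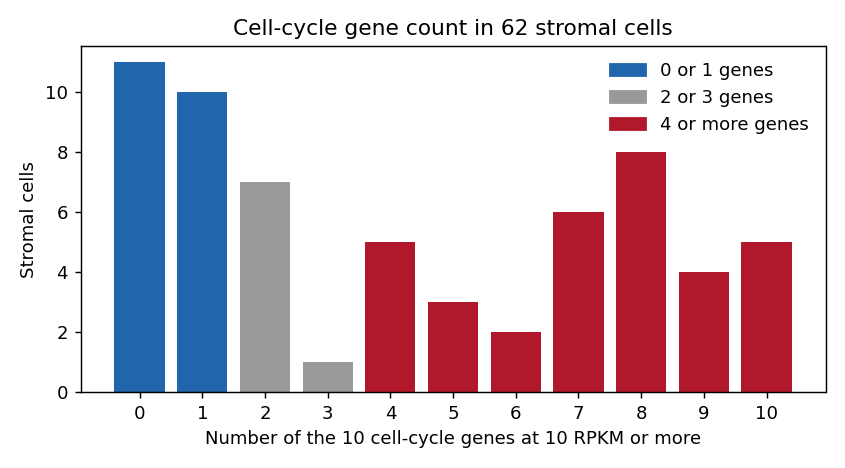
Number of the 10 cell-cycle genes at 10 RPKM or more (x axis) against the number of stromal cells (y axis), with bars coloured by class. The bars are lowest at 3 genes, with 1 cell, and cells are found at every count from 0 to 10.

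The 10 genes themselves chose the classes, so their levels are a description. Top2a, which untangles DNA, had a median of 166.8 RPKM in high-count cells and 0.244 RPKM in low-count cells. It reached 10 RPKM in 32 of 33 and 2 of 21 cells. Aurka, a kinase of the spindle poles, was the rarest of them. It was at 10 RPKM in 10 of 33 high-count cells and in 0 of 21 low-count cells (exact interval 0 to 16.1%).

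Depth, detected genes and position differed between the classes. Estimated reads per cell, in units of 1000 reads, ran from 2440 to 4971 in high-count cells (median 3990) and from 1653 to 4886 in low-count cells (median 3165). Genes at 1 RPKM or more had a median of 4233 per cell in the high-count class and 3603 in the low-count class, and across the 62 cells their number and the count of the 10 genes had a Spearman rho of 0.50. One read in a transcript of 1 kb was worth 0.201 to 0.605 RPKM in stromal cells. Among cells numbered 1 to 48 in the labels 20 of 29 were high-count and 6 low-count, and among cells numbered 49 to 96 these were 13 and 15 of 33. Plate column 4, by the well in the file header, held 7 stromal cells, 6 of them low-count and 0 high-count. The part of depth and position in the differences below was not tested, and values within cells 1 to 48 and within cells 49 to 96 are given beside a gene where one of them ends or adds a call in that range.

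None of the 10 stromal markers that passed the filter differed by 1 log2 unit, and the sum over the 13 listed markers had a median of 968.7 RPKM in high-count and 1063 RPKM in low-count cells. The sum over 13 epithelial markers had medians of 0.180 and 0.255 RPKM, and Pdx1 alone of them was at 0 in all stromal cells. The 12 leukocyte markers had medians of 0.801 and 1.09 RPKM, and the 10 endothelial markers were at a median of 0 in both classes. Single markers did reach 10 RPKM. At least 1 epithelial marker did so in 9 of 33 high-count and 4 of 21 low-count cells, Sox9 in 10 stromal cells. For leukocyte markers these were 4 and 0 cells, for endothelial 1 and 0, for acinar 4 and 3 and for erythroid 6 and 4. For endocrine markers they were 6 and 0 (Gcg in 6 stromal cells), and for neural crest and glia 12 and 12 (Ednrb in 25). At least 3 markers of another type at 10 RPKM were found in 1 high-count and 1 low-count cell, both times of the mesothelial list.

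Between the classes, the difference of mean log2(RPKM + 1) was taken for 9014 genes at 1 RPKM or more in at least 10% of stromal cells, without the 10 counted genes and the 5 that chose stromal cells. This scale understates the change of genes at low levels. A gene is called higher or lower where the difference reached 1. In high-count cells 941 genes were higher (10.4% of the genes) and 138 were lower (1.53%). The median over all 9014 genes was 0.20, and with differences centred on it 596 genes were higher and 323 lower. Within cells 1 to 48 the counts were 1719 higher and 869 lower, and within cells 49 to 96 they were 1218 and 530. Of the 941 genes 398 were higher in both number ranges, and of the 138 genes 40 were lower in both. Among the 31 stromal cells in the middle 2 quartiles of detected genes 1079 genes were higher and 914 lower, and without plate column 4, a setting chosen after seeing the data, 1045 were higher and 287 lower. The rule chose cells by genes of the same process. Nothing is therefore read from the share of list genes against these backgrounds, or from the rank of the mitosis list.

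Genes of mitosis and the spindle other than the 10 had the largest median difference of the 20 lists. Of 80 listed genes 78 were in the table and 76 passed the filter (Kifc1 and Nek2 did not). Of the 76, 70 were higher (92.1%, beside 10.4% of all genes) and 0 were lower (beside 1.53% of all genes). All 76 were above 0, with a median difference of 2.62 against 0.20 over all genes. The median was 2.51 in cells 1 to 48 and 2.50 in cells 49 to 96, and 65 genes were higher in both. One gene, Cdc25b, was lower in cells 1 to 48. The list median was 2.496 among cells of the middle 2 quartiles of detected genes and 2.62 without plate column 4. No gene of the list separated the classes without overlap, and neither did any of the 9014 genes. In 40 of the 76 genes no low-count cell reached 10 RPKM, and 33 genes reached it in at least 50% of the high-count cells. These counts were not taken over all genes, and the filter also passes genes detected in high-count cells alone. Nothing is therefore read from them about the list.

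Promoters of 3 of these genes are shown as examples of letters long described for some G2 and M genes, and were chosen for holding them. In these 160 bases before the start (RefSeq, GRCm38.p6, 5′ to 3′ on the gene's strand) capitals mark CCAAT, the letters of the NF-Y box, and TTTGAA or TTTAAA, the letters of the cell cycle genes homology region, on either strand. The genes are the 3 of largest difference whose window was at hand and holds both.
Kif22, chr7:127042421-127042580, minus strand: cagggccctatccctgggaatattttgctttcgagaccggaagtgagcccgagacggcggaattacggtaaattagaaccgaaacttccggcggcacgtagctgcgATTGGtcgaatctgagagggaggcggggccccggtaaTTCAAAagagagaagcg
Ckap2l, chr2:129297213-129297372, minus strand: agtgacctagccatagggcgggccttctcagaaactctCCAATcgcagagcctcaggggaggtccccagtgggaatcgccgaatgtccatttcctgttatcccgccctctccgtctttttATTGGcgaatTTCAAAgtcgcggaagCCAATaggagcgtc
Cenpa, chr5:30666726-30666885, plus strand: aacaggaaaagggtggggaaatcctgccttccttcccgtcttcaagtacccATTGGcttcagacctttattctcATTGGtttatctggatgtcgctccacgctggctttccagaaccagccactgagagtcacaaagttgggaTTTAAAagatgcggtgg
Kif22 holds 1 CCAAT, Ckap2l 3 and Cenpa 2, and each holds 1 match to the other letters. Of 27025 RefSeq promoters of 300 bases (250 before and 50 after the start), 37.9% held CCAAT, 27.8% held TTTGAA or TTTAAA and 10.9% held both. Windows were found for 60 of the 76 mitosis genes (78.9%) and 55 of the 73 replication genes (75.3%). Both shares are under 80%, so a comparison of motif shares over the lists is void and none is given.

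The 3 genes of largest difference act on the spindle. Kif22 (mm9, chromosome 7, 134171245 to 134185934, minus strand), a kinesin that binds chromosome arms and moves them along the spindle, ran from 0 to 1018 RPKM in high-count cells with a median of 46 RPKM, and from 0 to 0.627 RPKM in low-count cells with a median of 0. Its difference was 4.80, from 4.95 ± 2.67 (SD, n = 33 cells) to 0.15 ± 0.23 (SD, n = 21 cells) on the log2 scale. It reached 10 RPKM in 25 of 33 and 0 of 21 cells, and the classes overlapped through the high-count cells near 0. Ckap2l, a protein of the mitotic spindle (chromosome 2, 129093946 to 129122948, minus strand), had a median of 19.3 RPKM and a highest value of 385 RPKM in high-count cells, with a highest value of 0.259 RPKM in low-count cells, and its difference was 4.52. Tpx2, which activates Aurora A on spindle microtubules (chromosome 2, 152673700 to 152721057, plus strand), ran from 0 to 216.3 RPKM with a median of 25.6 RPKM in high-count cells. In low-count cells it ran from 0 to 90.04 RPKM with a median of 0.080 RPKM, and 1 cell was above 10 RPKM. Its difference was 4.33.

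Kinetochore and centromere genes spread on both sides of the list median of 2.62. The Ndc80 complex holds microtubules at the kinetochore: its subunit genes Spc25, Ndc80, Spc24 and Nuf2 had differences of 4.12, 3.82, 3.55 and 2.25, and the centromere genes Cenpn and Cenpm had 2.19 and 1.29. Cenpa, the histone H3 variant of the centromere, ran from 0 to 548.6 RPKM (median 29.4 RPKM) in high-count cells and from 0 to 93.03 RPKM (median 0) in low-count cells, a difference of 3.40. It reached 10 RPKM in 18 of 33 and 1 of 21 cells, and the classes overlapped. Genes of the chromosomal passenger complex, which corrects attachments and steers cytokinesis, were uneven: Cdca8 had a difference of 4.19 and Incenp of 3.01, while Aurkb, the kinase of the complex, had 1.19, with 2.27 in cells 1 to 48 and 0.03 in cells 49 to 96.

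Genes of the mitotic exit and of cytokinesis reached 10 RPKM in varied numbers of cells. Prc1, which bundles the microtubules of the central spindle (chromosome 7, 87439351 to 87461145, plus strand), ran from 0 to 240.5 RPKM with a median of 46.5 RPKM in high-count cells and from 0 to 19.7 RPKM with a median of 0 in low-count cells. Its difference was 3.87. Cdc20, an activator of the anaphase-promoting complex, reached 10 RPKM in 15 of 33 high-count cells (median 7.53 RPKM), and Plk1, a kinase of mitotic entry and exit, in 9 of 33 (median 0.848 RPKM). Neither reached it in a low-count cell. Of Plk1, Cdc20 and Aurka, a trio picked after its values were seen, 12 high-count cells had none at 10 RPKM, 12 had 1, 5 had 2 and 4 had all 3.

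Other members were also present in low-count cells. Cks1b, a small binding partner of cyclin-dependent kinases, ran from 10.3 to 719.1 RPKM (median 153 RPKM) in high-count cells and from 0 to 283 RPKM (median 42.6 RPKM) in low-count cells. It was at 10 RPKM in all 33 high-count cells and in 15 of 21 low-count cells, with a difference of 2.06. Smc2, a condensin subunit that compacts chromosomes, had medians of 78.8 and 11.95 RPKM, ranges of 5.04 to 209.3 and 0.060 to 81.2 RPKM, and a difference of 2.87. The 6 genes under 1 were Depdc1a, Cit, Troap, Dlgap5, Espl1 and Cdc25b, and the smallest difference was that of Cdc25b at 0.43. Cdc25b, a phosphatase that activates Cdk1, was lower in cells 1 to 48 (-1.24) and higher in cells 49 to 96 (1.44), and Depdc1a (0.77 and 1.30) and Cit (0.75 and 1.09) passed 1 in the second range.

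**Figure D2:**
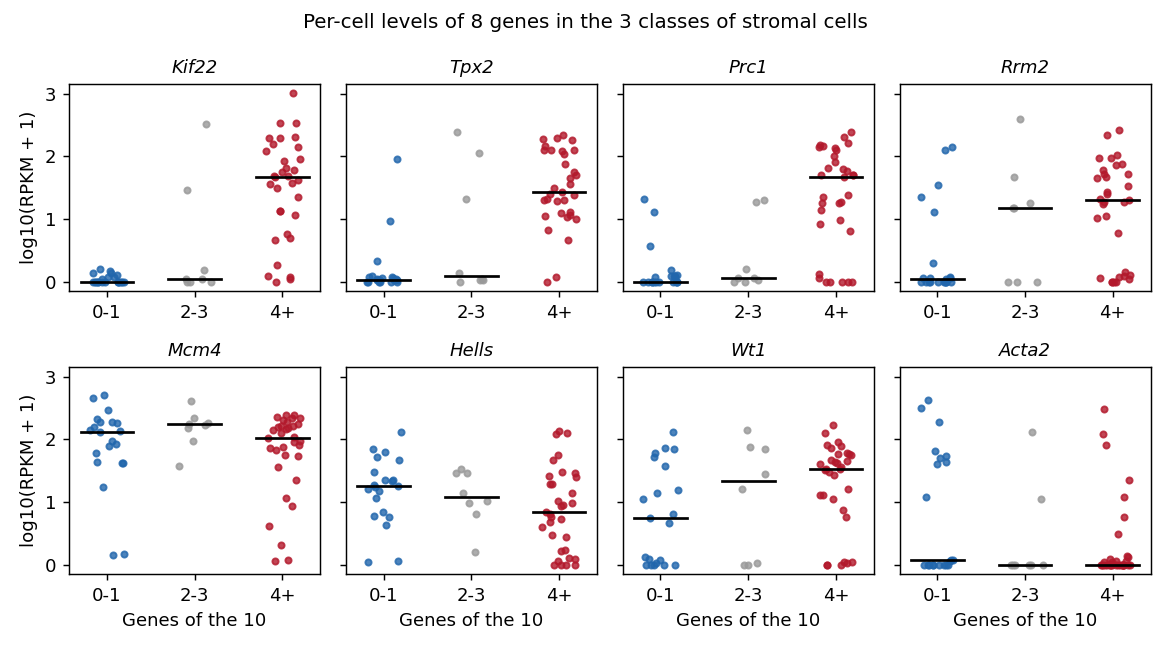
Levels of 8 genes as log10(RPKM + 1) (y axis) in each stromal cell, by the number of the 10 genes it carried (x axis: 0 or 1, 2 or 3, 4 or more); each point is a cell and each bar a class median. Kif22, Tpx2 and Prc1 have class medians of 0 to 0.080 RPKM in low-count cells, while Mcm4 is above 10 RPKM in most cells of every class.

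DNA replication genes had a smaller median difference than the mitosis list. Of 74 listed genes 73 passed (Dscc1 did not). Of these, 30 were higher (41.1%, beside 10.4% of all genes), 2 were lower (2.74%, beside 1.53% of all genes) and 41 lay between. Below 0 lay 16 of the 73 genes, and 3162 of all 9014 genes. The median difference was 0.65 against 0.20 over all genes. The median was 0.74 in cells 1 to 48 and 0.53 in cells 49 to 96, with 15 genes higher in both and 0 of the 2 lower genes lower in both. In 7 of the 73 genes no low-count cell reached 10 RPKM, and in 8 at least 50% of the low-count cells did: Mcm4, Pcna, Nasp, Rfc1, Rfc2, Orc6, Tipin and Hells. Here too the counts were not taken over all genes.

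Higher members included genes of nucleotide supply and a clamp-binding protein. The largest difference was that of 2810417H13Rik (now Pclaf, a protein that binds the sliding clamp PCNA; chromosome 9, 65738130 to 65751358, plus strand), at 3.97. It ran from 2.29 to 201.8 RPKM (median 55.6 RPKM) in high-count cells and from 0 to 184.8 RPKM (median 0.164 RPKM) in low-count cells, and 5 of 21 low-count cells were above 10 RPKM. Rrm1 and Rrm2, the subunits of ribonucleotide reductase, had differences of 2.44 and 2.34, and that of Rrm1 was 0.96 in cells 1 to 48 and 3.07 in cells 49 to 96. Rrm2 reached 10 RPKM in 21 of 33 high-count and 5 of 21 low-count cells. Tyms, which makes thymidylate, had a difference of 2.42. Uhrf1, which guides maintenance methylation of new DNA, had 2.001, and Gmnn, the inhibitor of origin licensing, 2.03.

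The MCM helicase, the ring that unwinds DNA at the fork, was present in both classes. Mcm4 ran from 0.157 to 247.8 RPKM (median 102.7 RPKM) in high-count cells and from 0.417 to 516.2 RPKM (median 129.5 RPKM) in low-count cells. It reached 10 RPKM in 28 of 33 and 19 of 21 cells, and its difference was -0.34, with 0.80 in cells 1 to 48 and -1.04 in cells 49 to 96. Mcm7 had a difference of 1.18 (2.10 and 0.40 in the 2 ranges) and Mcm3 of 1.26 (-0.0866 among cells of the middle 2 quartiles of detected genes). Mcm6 had 0.61 (-0.22 and 0.30 in the 2 ranges) and Mcm5 had 0.50 (-0.20 and 0.85). Mcm2 (chromosome 6, 88833468 to 88848774, minus strand) was lower, at -1.14, with -2.13 in cells 1 to 48 and -0.61 in cells 49 to 96. It ran from 0 to 177.2 RPKM (median 0.182 RPKM) in high-count cells and from 0 to 359 RPKM (median 0.336 RPKM) in low-count cells, with 5 of 33 and 8 of 21 cells at 10 RPKM. The sum over Mcm2 to Mcm7 had medians of 295.7 RPKM in high-count, 289.9 RPKM in low-count and 409.4 RPKM in the cells between. At least 3 of these 6 genes were at 10 RPKM in 21 of 33, 12 of 21 and 8 of 8 cells.

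Clamp and chromatin genes of S phase also overlapped. Pcna, the sliding clamp, ran from 0 to 119.9 RPKM (median 24.7 RPKM) in high-count cells and from 0 to 124.3 RPKM (median 17.8 RPKM) in low-count cells. It was at 10 RPKM in 22 of 33 and 15 of 21 cells, and its difference was -0.17. Hells, a chromatin remodeller needed for DNA methylation (chromosome 19, 39005480 to 39042767, plus strand), was lower at -1.02, with -0.77 in cells 1 to 48 and -1.004 in cells 49 to 96. It ran from 0 to 132.8 RPKM (median 5.98 RPKM) in high-count cells and from 0.111 to 129.5 RPKM (median 17.2 RPKM) in low-count cells. It reached 10 RPKM in 12 of 33 cells (36.4%, interval 20.4 to 54.9%) and in 15 of 21 cells (71.4%, interval 47.8 to 88.7%). Tipin, of the fork protection complex, had medians of 18.7 and 100 RPKM and a difference of -0.83 (-0.13 and -1.25 in the 2 ranges).

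Promoters of Hells and Cdc6, which loads the helicase on origins and had a difference of 0.06, are shown as examples of E2F letters. They were chosen for holding them, so no contrast with the 3 mitosis promoters follows. Among replication genes whose window was at hand and whose 160 bases hold an E2F match, they have the lowest differences. Capitals mark TTTCGCGC, TTTGGCGC, TTTCCCGC or TTTGCCGC on either strand.
Hells, chr19:38930830-38930989, plus strand: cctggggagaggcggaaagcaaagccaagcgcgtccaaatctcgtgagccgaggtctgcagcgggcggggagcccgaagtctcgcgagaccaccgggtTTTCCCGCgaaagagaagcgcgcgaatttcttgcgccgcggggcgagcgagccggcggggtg
Cdc6, chr11:98907991-98908150, plus strand: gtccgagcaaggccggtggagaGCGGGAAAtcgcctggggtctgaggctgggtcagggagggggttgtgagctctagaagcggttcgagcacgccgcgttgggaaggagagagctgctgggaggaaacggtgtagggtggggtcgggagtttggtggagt
Each holds 1 match, and 2.32% of all 27025 promoters of 300 bases hold at least 1. These letter matches are descriptions and not bound sites.

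Counted per cell, the mitosis list separated the classes more than the replication list did. The rule itself counted genes of G2 and M, so this order is a description and no independent result. High-count cells had 9 to 55 of the 76 mitosis genes at 10 RPKM (median 36), low-count cells 0 to 13 (median 6) and the cells between 7 to 23 (median 12). One high-count cell, C79 with 9, lay within the range of the low-count cells. Replication genes numbered 13 to 38 of 73 (median 29) in high-count, 9 to 32 (median 18) in low-count and 16 to 39 (median 28) in the cells between. Across the 62 cells the count of the 10 genes had a Spearman rho of 0.94 with the mitosis genes, 0.33 with the replication genes and -0.004 with Mcm2 to Mcm7, and the cells also differ in depth. Within the 33 high-count cells, mitosis and replication genes had a rho of -0.38. Members of the replication list were common or rare in low-count cells: of 21 cells, 19 held Mcm4, 15 Pcna, 7 Mcm5, 5 Rrm2 and 4 Tyms at 10 RPKM. Whether such RNA marks a cell in the cycle was not tested, so the label non-cycling was not taken over and the classes are named here by their count.

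**Figure D3:**
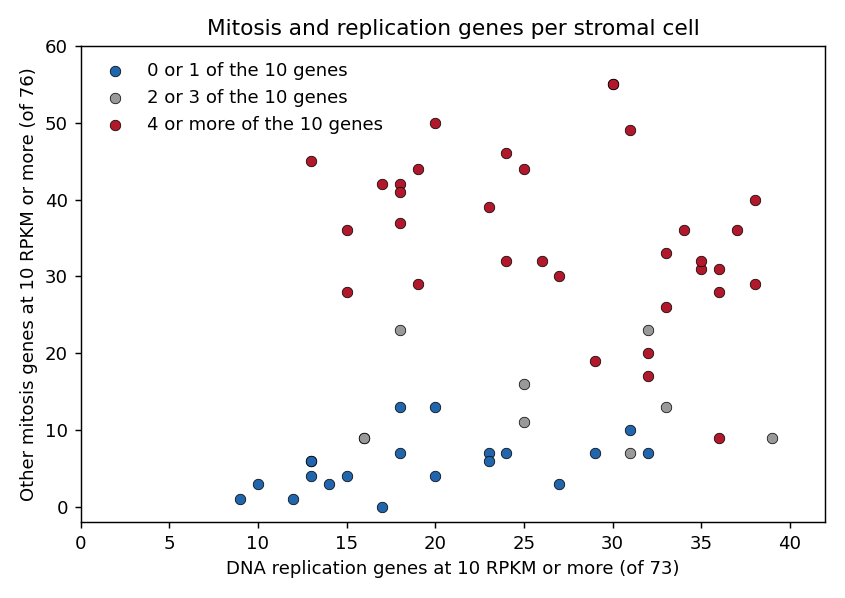
Each point is a stromal cell, placed by its number of replication genes at 10 RPKM or more (x axis, of 73) and of mitosis genes other than the 10 (y axis, of 76), and coloured by class. Low-count cells spread from 9 to 32 replication genes with at most 13 mitosis genes, and high-count cells from 13 to 38 replication genes.

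Genes that set entry into the cycle had a median near 0. Of 39 listed, 32 passed, 2 were higher (6.25%, beside 10.4% of all genes) and 0 lower (beside 1.53% of all genes). The median difference of the list was 0.06 against 0.20 over all genes. Foxm1, the activator of G2 and M genes, ran from 0 to 181.4 RPKM in high-count cells (median 0.445 RPKM) and from 0 to 0.238 RPKM in low-count cells, with 12 of 33 and 0 of 21 cells at 10 RPKM and a difference of 2.15. Mybl2, the gene of B-Myb, did not pass the filter. It was at 1 RPKM or more in 4 stromal cells, with a highest value of 9.94 RPKM. E2f2 did not pass either. E2f6, a repressor of the E2F family, had a difference of 1.13. Cdkn1c, the inhibitor p57 of cyclin-dependent kinases, was abundant in both classes, from 513.7 to 3497 RPKM (median 1774 RPKM) and from 745.3 to 3389 RPKM (median 1850 RPKM), and no cell was without it. Its difference was -0.17.

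Other inhibitors were found in few cells. Cdkn1b, the inhibitor p27, was at 10 RPKM in 3 of 33 high-count and 1 of 21 low-count cells, with a difference of 0.30. Cdkn1a, Cdkn2a and Cdkn2b were listed at 0 in all 62 stromal cells, Cdkn2c and Cdkn2d were at 1 RPKM in 4 and 6 of them, with highest values of 325.3 and 13.1 RPKM. None of these 5 passed the filter. Cdk4 had medians of 181.5 and 167.5 RPKM. Ccnd2 had 43.1 and 65.95 RPKM with a difference of -0.65, and Ccnd1 a difference of -0.01, with 1.03 in cells 1 to 48 and -1.06 in cells 49 to 96. The antiproliferative genes Btg1 and Gas1 had differences of -0.46 and -0.63.

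Chromatin, nuclear envelope and tubulin genes were the next groups. Of 29 genes of the nuclear envelope, nuclear transport and tubulin, 12 were higher (41.4%, beside 10.4% of all genes) and 0 lower. Their median was 0.88. Rangap1, which acts on the Ran cycle at nuclear pores and kinetochores, ran from 0 to 280.9 RPKM (median 63.8 RPKM) in high-count cells and from 0 to 60.8 RPKM (median 0.219 RPKM) in low-count cells, a difference of 3.46. The tubulin genes Tubb4b and Tuba1b had 3.11 and 1.90. Tuba1b ran from 60.2 to 616.2 RPKM in high-count cells and from 1.46 to 277.6 RPKM in low-count cells. Of 34 genes of chromatin proteins 11 were higher (32.4%) and 0 lower, with a median of 0.80. Among the higher were the histone chaperone genes Asf1b (2.44) and Anp32e (2.35). H2afx (2.36), the histone of the DNA damage mark, and Hmgb2 (2.31), a DNA-bending protein, were also higher.

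Growth and housekeeping lists had smaller medians. Proteasome genes counted 11 higher of 31 (35.5%, median 0.74), nucleotide synthesis 5 of 24 (20.8%, 0.66) and oxidative phosphorylation 11 of 36 (30.6%, 0.41). Splicing had 5 of 30 (16.7%, 0.36), glycolysis 1 of 16 (6.25%, 0.17) and ribosome biogenesis 3 of 30 (10%, 0.14). No member of these lists was lower, where over all genes 10.4% were higher and 1.53% lower. Ndufb9, a complex I subunit outside the lists, was lower at -1.79. Psma1 of the proteasome core had a difference of 1.90, with 0.31 in cells 1 to 48 and 2.45 in cells 49 to 96, and Psmc2 of its ATPase ring had 1.87. Ndufs7 of respiratory complex I had 1.96, with 0.81 and 1.78 in the 2 ranges. Of the higher genes, 5 of the 11 proteasome genes and 0 of the 11 oxidative phosphorylation genes were higher in both ranges. High-count cells also had more detected genes (medians of 4233 and 3603), and the part of that number in these lists was not tested.

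**Figure D4:**
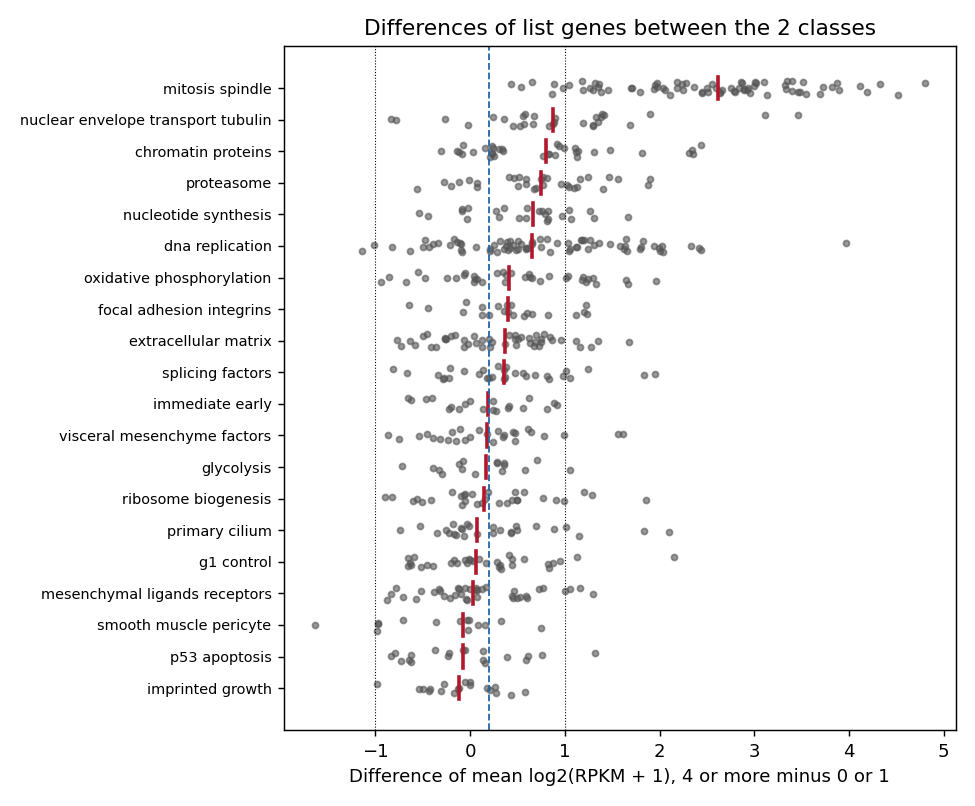
Difference of mean log2(RPKM + 1), high-count minus low-count cells (x axis), for each gene of 20 lists (y axis); red bars are list medians, the dashed line is the median of all genes (0.20) and dotted lines mark -1 and 1. The mitosis and spindle list, with a median of 2.62, stands to the right of every other list.

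Among extracellular matrix genes 5 of 47 were higher (10.6%, beside 10.4% of all genes) and 0 lower (median 0.37). The largest difference was that of Timp1, an inhibitor of metalloproteinases, at 1.68 (2.75 and 0.71 in the 2 ranges), and 0 of them were higher in both number ranges. Transcription factors of the visceral mesenchyme had 2 higher of 27 (7.41%) and 0 lower (median 0.18). Mesenchymal ligands and receptors had 4 higher of 38 (10.5%) and 0 lower (median 0.03). Wt1, a zinc finger factor of mesothelium and its descendants, ran from 0 to 166.4 RPKM (median 32.8 RPKM) in high-count and from 0 to 128.3 RPKM (median 4.59 RPKM) in low-count cells. It reached 10 RPKM in 25 of 33 (75.8%, interval 57.7 to 88.9%) and 9 of 21 cells (42.9%, interval 21.8 to 65.98%), with a difference of 1.62 that was 0.68 in cells 1 to 48 and 2.38 in cells 49 to 96. Of the other mesothelial markers, Msln was at 0 in all stromal cells and Upk3b and Lrrn4 reached 10 RPKM in 1 cell each. Snai2, a zinc finger factor of mesenchymal cells, had medians of 101 and 17.4 RPKM and a difference of 1.56.

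Smooth muscle and pericyte genes had 0 higher and 1 lower of 14 (7.14%, beside 1.53% of all genes), with a median of -0.07. The lower one was Acta2, smooth muscle actin (chromosome 19, 34315581 to 34329826, minus strand), at -1.64. It ran from 0 to 299 RPKM in high-count cells (median 0) and from 0 to 416.5 RPKM in low-count cells (median 0.206 RPKM), and reached 10 RPKM in 5 of 33 (15.2%, interval 5.11 to 31.9%) and 9 of 21 cells (42.9%, interval 21.8 to 65.98%). The difference was -1.32 in cells 1 to 48 and -2.40 in cells 49 to 96, and both classes held cells at 0. Tagln, Myl9 and Tpm1, of the same contractile apparatus, had -0.99, -0.97 and -0.97. They were named for the size of their difference. Of the 14 genes 10 were below 0 and 4 above it, with a largest difference of 0.75. Tagln had -2.24 in cells 1 to 48 and -0.97 in cells 49 to 96, Myl9 -0.79 and -1.33, and Tpm1 -1.95 and -0.54.

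In the remaining lists the share of higher genes lay on both sides of the 10.4% of all genes. Primary cilium genes had 4 higher of 27 (14.8%, median 0.08), among them the transport genes Ift46 (2.10) and Ift27 (1.83). Focal adhesion and integrin genes had 4 higher of 21 (19.05%, median 0.40), and p53 and apoptosis genes 1 of 19 (5.26%, median -0.08), which was Mdm2 (1.32, and 0.91 in cells 49 to 96), the ligase that degrades p53. Imprinted growth genes had 0 of 19 in either direction (median -0.12). The closest was Meg3, a noncoding RNA, at -0.99 (-0.60 and -1.61 in the 2 ranges), with medians of 62.5 and 162.2 RPKM.

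Immediate early genes, which respond within minutes to stimuli and to dissociation, had 0 of 20 past 1 in either direction, but the 2 number ranges went opposite ways. The list median was 1.20 in cells 1 to 48, with 12 higher and 0 lower, and -0.75 in cells 49 to 96, with 1 higher and 7 lower. Over all 9014 genes 1719 were higher and 869 lower in the first range, and 1218 and 530 in the second. The first range holds only 6 low-count cells and the second 15. Egr1, a zinc finger factor of this list, had a difference of 3.67 in the first and -0.84 in the second. The mitosis list had almost the same median in both.

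**Figure D5:**
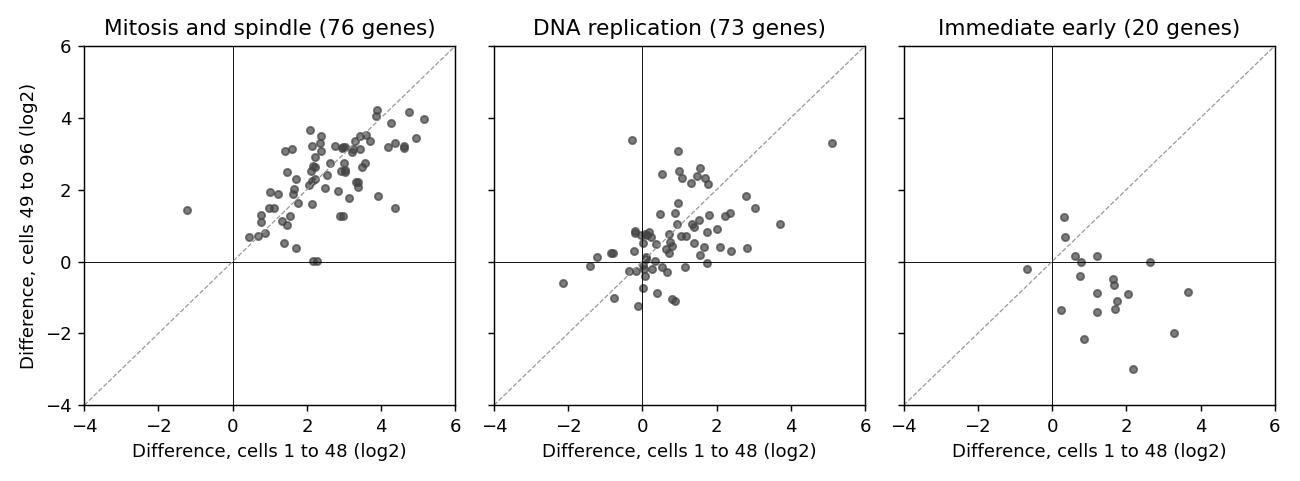
Difference between high-count and low-count cells within cells 1 to 48 (x axis, log2) and within cells 49 to 96 (y axis, log2) for the genes of 3 lists; the dashed line marks equal values. Mitosis genes lie around medians of 2.51 and 2.50, while immediate early genes lie mostly to the right of 0 and below it, around 1.20 and -0.75.

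Outside all lists, the 12 genes of largest difference in each direction were named by rule. Zwilch (3.62) encodes a kinetochore protein, Fbxo5 (2.67) an inhibitor and Fzr1 (2.40) an activator of the anaphase-promoting complex. Arl6ip1, a membrane protein of the endoplasmic reticulum, ran from 0.578 to 630 RPKM (median 144.4 RPKM) in high-count and from 0 to 383 RPKM (median 1.51 RPKM) in low-count cells, a difference of 3.33. Naa38 had 3.08. In the other direction stood Sra1 (-2.29), Atxn10 (-1.82), Ndufb9 (-1.79), a subunit of respiratory complex I, and Efemp2 (-1.58), a protein of elastic fibres. Sra1 was at 0.13 in cells 1 to 48 and at -3.66 in cells 49 to 96. Atxn10 ran from 0.135 to 286.7 RPKM (median 18.97 RPKM) and from 2.22 to 332.2 RPKM (median 51.6 RPKM), and was at -1.81 and -2.15 in the 2 number ranges.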

How the data were processed

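The deposited table lists transcripts in rows (29510 rows, 22869 symbols) and cells in columns, with mm9 coordinates. No header names the unit. Values multiplied by transcript length (GENCODE vM21) lie near whole reads: in the median cell 78.5% of low values were within 0.15 reads of a whole number. The deposited values were therefore read as RPKM computed by the authors, and reads per cell were estimated from the worth of 1 read. CASAVA 1.8.2 and mm9 are named in the submitters' processing notes; what aligned and counted the reads, and with which annotation, is not given in the sources used here. Reads carry no molecular identifiers. Each of 81 libraries has its own index pair, so no 2 libraries share a barcode pair. No doublet caller was run.

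For a gene with several transcripts the row of highest mean was kept. Class means of log2(RPKM + 1) (pseudocount 1) were compared by difference in Python 3.11.15 with pandas 2.3.3, numpy 2.4.6 and scipy 1.17.1 (matplotlib 3.10.9 for plots), after testing on simulated data. Intervals of shares are exact (Clopper-Pearson, 95%), also where 0 cells were counted. Genes sharing reads with near-identical copies, tubulins among them, are uncertain.

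The cells, the 10 genes, the lists and the comparisons were chosen with earlier results of these data known. Genes named are any of the mitosis, replication and G1 lists, up to 4 of largest absolute difference per other list, markers of other types at 10 RPKM, and outside all lists the 12 of largest difference in each direction at 10 RPKM in at least 50% of the higher class. The text gives a part of them. Alternatives covered pseudocount, filter, transcript choice, scaling, class limits and cell subsets.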

Additional observations from a re-analysis of the deposited data

How the results depend on the processing

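No paired analysis was possible because the labels give 1 group with no shared replicate numbers. The number of genes higher in high-count cells (941) was 2315 with a pseudocount of 0.1, 122 with a pseudocount of 10, 596 after centring on the median of all genes, 1461 against cells with a count of 0 only, 1719 in cells 1 to 48 and 402 when a difference of 25 percentage points in the share of cells at 10 RPKM was counted. The number lower (138) was 497, 5, 323, 333, 869 and 50 in the same order, 914 in the middle 2 quartiles of detected genes, 530 in cells 49 to 96 and 287 without plate column 4, a setting chosen after seeing the data. The mitosis list (70 higher, median 2.62) had 46 higher with a pseudocount of 10, and medians of 4.12 and 1.17 with pseudocounts of 0.1 and 10. The replication list (30 higher, median 0.65) had 6 higher with a pseudocount of 10 and 15 by share of cells, and a median of 1.20 with a pseudocount of 0.1. Leaving out each cell in turn gave 883 to 1016 genes higher, 135 to 169 lower, 69 to 71 mitosis genes (median 2.49 to 2.71) and 27 to 31 replication genes (median 0.57 to 0.78). Through these settings 84 of the named genes were followed, and 2 that had passed 1 changed sign. Sra1 (-2.29) was at 0.13 in cells 1 to 48, and Mcm3 (1.26) at -0.0866 in the middle 2 quartiles of detected genes. Genes outside the 84 also changed sign in cells 1 to 48, among them 2700094K13Rik (2.37, then -0.60), Rfc4 (1.999, then -0.27) and Arhgap17 (-1.86, then 0.44). The causes of these changes were not tested, and the subsets also hold fewer cells. With 1 sample, no value here carries an error over animals.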
